A study of Mus musculus with 8 samples.

Results

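The proteins that drive and restrain the cell division cycle were followed here as 54 mouse genes: the A-, B-, D- and E-type cyclins, the numbered cyclin-dependent kinases (Cdks), the Cdk inhibitors, the Cdc25 phosphatases and Wee1, the pocket proteins with the E2f transcription factors and their partners, and the ubiquitin ligase receptors Skp2 and Fbxw7. They were chosen by name, through a fixed pattern of gene symbols and not by any measured value, from 23235 symbols listed in the deposited tables. Of the 54, 49 had a single locus and reached 1 FPKM in 4 or more libraries, and these were tested. Ccna1, Ccnb3, Cdk15 and Cdkn2c lay under that filter, and Cdkn2d was listed at 2 loci and was not tested.

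RNA-seq of polyadenylated RNA compared 2 states of mouse pluripotent cells. Epiblast stem cells (mEpiSC), the primed state of the epiblast after implantation, came from 3 lines: mEpiSC 1 from EpiSC5, mEpiSC 2 and mEpiSC 3 from EpiSC7, and mEpiSC 4 from EpiSC9. Embryonic stem cells (mESC), the naive state of the inner cell mass, came from 2 lines: mESC 1 and mESC 2 from ESF122, and mESC 3 and mESC 4 from ESF175/1. The mEpiSC were kept with the growth factor FGF2 and passaged as small clumps, the mESC with the cytokine LIF and passaged as single cells. All were cultured in a medium with serum replacement on irradiated embryonic fibroblasts and were parted from those feeders before extraction. No label says whether 2 libraries of a line were grown apart. The p-values therefore measure only how much these libraries vary, which may be technical in part.

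Cyclins switch on Cdks, which carry out the phosphorylations of the cell cycle. In most cells D-type cyclins with Cdk4 or Cdk6 begin to inactivate the pocket proteins Rb1, Rbl1 and Rbl2 during G1, which frees E2f factors to transcribe genes for DNA replication. Cyclin E with Cdk2, cyclin A and cyclin B with Cdk1 then take the cell through S phase and mitosis, while inhibitors of the Cip/Kip and Ink4 families hold Cdks back. Mouse embryonic stem cells are known for a short G1 phase with high cyclin E activity and pocket proteins kept largely inactive.

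The libraries held 24800000 to 38600000 fragments as implied by the deposited values and intervals, and the tested genes of the set had from 15 implied fragments (Cdkn2a) to 28969. The unit is FPKM, a fragment count scaled to transcript length and library size, so that levels of different genes can be set side by side. All 6 naive markers were lower and all 6 primed markers higher in mEpiSC than in mESC, as the labels have it. Among mESC libraries, mESC 2 had the most Fgf5 (8.61 FPKM, others 0.263 to 1.64 FPKM), Cer1, Foxa2, Cdh2 and Krt18. It had the least Zfp42, Esrrb, Klf4 and Tbx3. Otx2 was highest and Tfcp2l1 lowest in mESC 1, and Dppa3 was lowest in mESC 4. Of 16 fibroblast markers, 7 were higher in mEpiSC and none lower; their summed level was 218 to 719 FPKM in mEpiSC, against 42.1 to 360 FPKM in mESC, and none was at 0 in all libraries. Of 8 primitive endoderm markers 6 were tested and 5 were higher in mEpiSC. The sum of the 8 was 22.0 to 107 FPKM in mEpiSC, against 6.83 to 11.0 FPKM in mESC. Gata4 and Sox7 lay under the filter. Even so, Gata4 was at 18.9 FPKM in mEpiSC 1 and 0.498 to 1.20 FPKM in the other mEpiSC libraries. Gata6 (26.4 FPKM, others 1.71 to 4.41 FPKM) and Sox17 (18.4 FPKM, others 2.43 to 7.42 FPKM) were also highest in mEpiSC 1. Among mEpiSC libraries Sox7 was highest in mEpiSC 3 and Lama1 in mEpiSC 4. Of 7 trophoblast markers 2 were tested and 1, Tfap2c, was lower in mEpiSC. The summed level of these markers was 3.87 to 10.3 FPKM in mEpiSC, against 16.0 to 18.7 FPKM in mESC. Most of it was Tfap2c, at 1.94 to 7.26 FPKM in mEpiSC and 12.2 to 14.4 FPKM in mESC. Cdx2, Elf5 and Hand1 reached at most 0.615 FPKM in any library, and Tpbpa was at 0. The part of these other cell types in the differences below was tested only for fibroblasts, by adding the mean log2 level of their markers as a covariate. That mean was 2.67 to 4.47 in mEpiSC and 0.83 to 3.60 in mESC. In each state it was highest in replicate 1 and lowest in replicate 4. The fit therefore cannot fully part fibroblast RNA from the state or from what sets replicate 4 apart. In such bulk samples fewer cells of a type and less RNA per cell cannot be told apart.

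The 7 genes with a log2 fold change beyond 1 in size were Ccnd2 (2.33), Cdk14 (1.71), Cdk6 (1.52), E2f5 (1.51) and E2f6 (1.03), which were higher in mEpiSC, and Cdkn2a (−1.24) and Ccne1 (−1.11), which were lower. With limma on log2(FPKM + 1) and Benjamini-Hochberg adjustment over all 11556 genes tested, 15 of the 49 genes passed an adjusted p under 0.05, 10 higher and 5 lower in mEpiSC. That is 30.6% of the 49, against 37.3% of all genes tested (23.1% higher and 14.2% lower), a share below that background. The 10 that were higher were Ccnd2, Cdk14, Cdk6, E2f5, E2f6, Cdkn3, Cdkn1b, Cdc25c, Cdk5 and Cdk8, and the 5 that were lower were Cdkn2a, Ccne1, Rbl2, Tfdp1 and E2f4. Rbl2 passed the filter through mESC only, so the filter itself set its groups apart and its call supports nothing here. The 8 libraries did not overlap between states for 17 of the 49, 11 higher and 6 lower in mEpiSC, against 37.1% of all genes (22.2% and 14.9%). For 38 of the 49, 31 of them not called, the fold change had a 95% interval inside −1 to 1 on the log2 scale, against 62.2% of all genes. The median log2 fold change was −0.02 in the 49 genes and 0.083 over all genes, −0.015 after median ratio scaling, under which 50.9% in place of 61.9% of all calls were higher in mEpiSC. Ccnd2, Cdk14, Cdk6, E2f5, E2f6 and Ccne1 kept their call in each of 17 alternative fits. With the fibroblast covariate 9 were called higher and 3 lower: Cdk5, Cdk8, E2f4 and Tfdp1 lost their call and Cdk4 gained one. The 5 calls lower in mEpiSC became 3 without mESC 2 or without mESC 4. E2f4 lost its call in both fits (adjusted p 0.069 and 0.057), and Rbl2 fell under the filter there and was not tested. With the mean of each line as 1 sample, 3 mEpiSC lines against 2 mESC lines, a fit added after seeing the data, 5 higher and 2 lower calls remained: Ccnd2, Cdk14, Cdk6, E2f5, E2f6, Ccne1 and Tfdp1.

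**Figure D1:**
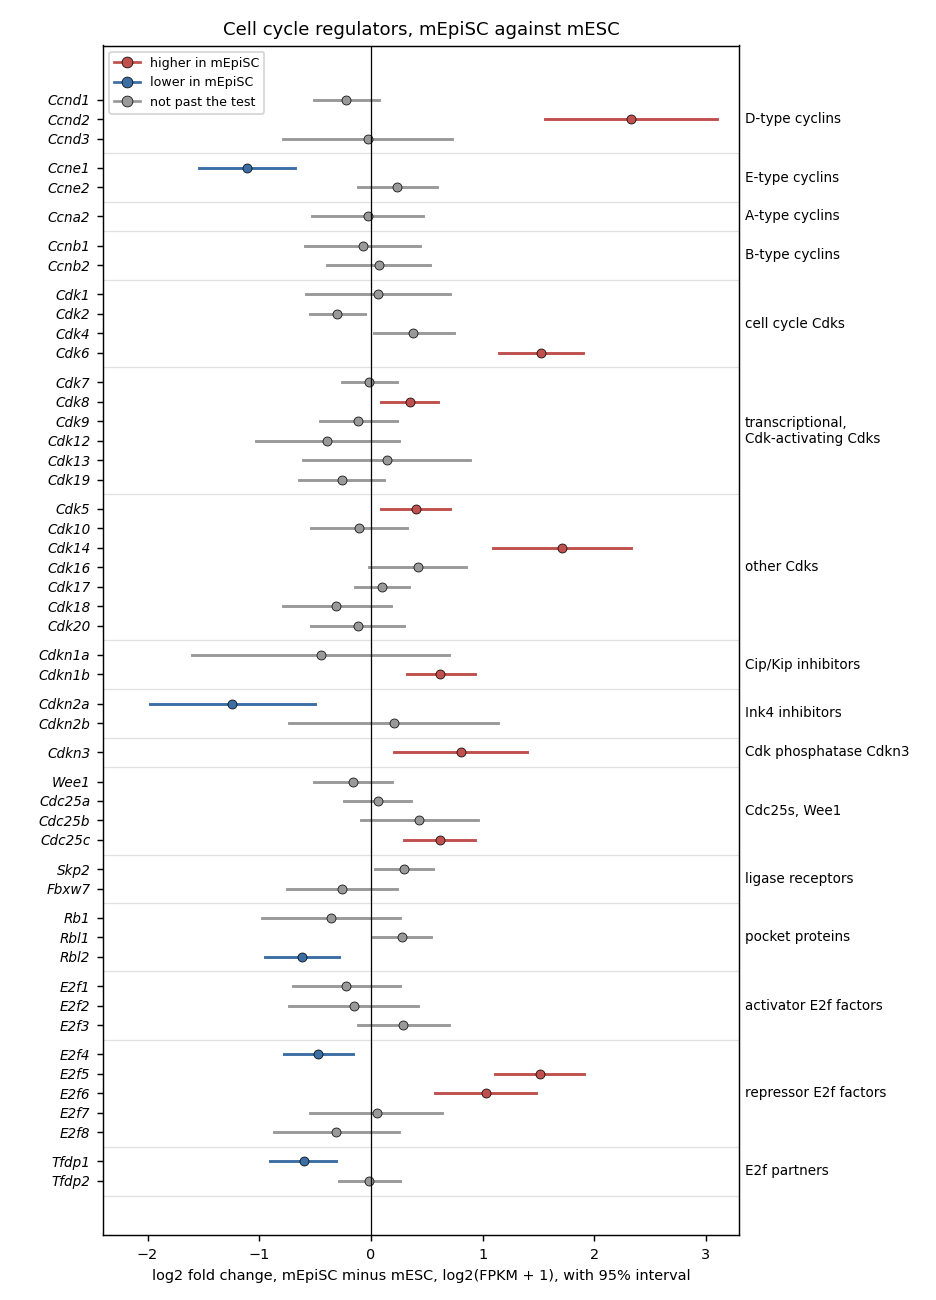
Log2 fold change of each of the 49 tested genes, mEpiSC minus mESC on the log2(FPKM + 1) scale, with its 95% interval from limma; genes are grouped by role. Ccnd2, Cdk14, Cdk6, E2f5 and E2f6 lie furthest to the right (1.03 to 2.33), Cdkn2a and Ccne1 furthest to the left (−1.24 and −1.11), and most other intervals cross or touch 0.

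Among the 3 D-type cyclins, which bind Cdk4 and Cdk6 in response to growth signals, only Ccnd2 passed the test. Ccnd2 (cyclin D2, mm9 chromosome 6, 127075727 to 127101066) had 17.3, 35.3, 33.9 and 29.4 FPKM in mEpiSC 1 to 4, against 5.32, 9.20, 2.38 and 4.09 FPKM in mESC 1 to 4. The groups did not overlap; EpiSC5 was the lowest mEpiSC library and the ESF122 pair lay above the ESF175/1 pair. The log2 fold change was 2.33 (SE 0.34, adjusted p = 0.0012), the largest of the 49 genes. Ccnd1 had 41.0, 45.3, 40.8 and 41.0 FPKM in mEpiSC 1 to 4, against 54.5, 56.1, 39.9 and 47.6 FPKM in mESC 1 to 4. These ranges overlapped and the log2 fold change of −0.22 (95% interval −0.51 to 0.07) did not pass the test (adjusted p = 0.21). Ccnd3 had 43.3, 41.5, 45.8 and 98.8 FPKM in mEpiSC 1 to 4, against 45.5, 45.6, 44.2 and 96.6 FPKM in mESC 1 to 4. Its level was alike in both states, and in each the replicate 4 library stood well above the other libraries. The log2 fold change was −0.03 (95% interval −0.79 to 0.73, adjusted p = 0.95). Of the fragments of Ccnd1 and Ccnd3 some may belong to neighbours or copies: 27.2% and 14.6% of their 50-base windows also occur in other genes, LTO1 for Ccnd1 and Bysl and a pseudogene for Ccnd3, against 4.83% for Ccnd2.

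The sum of the 3 D-type cyclins was 128 ± 28.8 FPKM in mEpiSC and 113 ± 25.9 FPKM in mESC (SD, n = 4 each), a difference within the spread. Its make-up differed: Ccnd2 made up 17.1%, 28.9%, 28.2% and 17.4% of the sum in mEpiSC 1 to 4, against 5.05%, 8.30%, 2.76% and 2.76% in mESC 1 to 4. Ccnd1 averaged 33.9 ± 6.96% of the sum in mEpiSC and 45.1 ± 9.01% in mESC, and Ccnd3 43.2 ± 10.7% in mEpiSC and 50.1 ± 10.9% in mESC.

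The kinases that D-type cyclins activate differed in the less abundant one. Cdk6 (chromosome 5, 3344312 to 3522225) had 20.0, 26.1, 20.7 and 22.3 FPKM in mEpiSC 1 to 4, against 7.05, 9.23, 7.25 and 5.19 FPKM in mESC 1 to 4. No mEpiSC library came near an mESC library, and the log2 fold change was 1.52 (SE 0.17, adjusted p = 3.2e-04). Cdk4 had 313, 343, 315 and 403 FPKM in mEpiSC 1 to 4, against 234, 258, 230.1 and 336 FPKM in mESC 1 to 4. Each mEpiSC library lay above the mESC library of the same number, but the groups overlapped through mESC 4. The log2 fold change of Cdk4 was 0.38 (SE 0.16, adjusted p = 0.083). Of 17 alternatives 13 left Cdk4 not called. Adjusted p was 0.14 after median ratio scaling, 0.21 with the line as a random block and 0.24 with line means as samples. The lowest was 0.0092, with the replicate number as a block, a pairing that no label gives. Cdk4 also passed with the fibroblast covariate (0.024), without both replicate 4 libraries (0.011) and without mESC 4 (0.022). About 24.2% of the windows of Cdk4 are shared with Tspan31, a gene next to it. Cdk6 made up 6.12 ± 0.75% of the summed level of both kinases in mEpiSC and 2.74 ± 0.842% in mESC (SD, n = 4 each), so Cdk4 was the main one in every library.

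**Figure D2:**
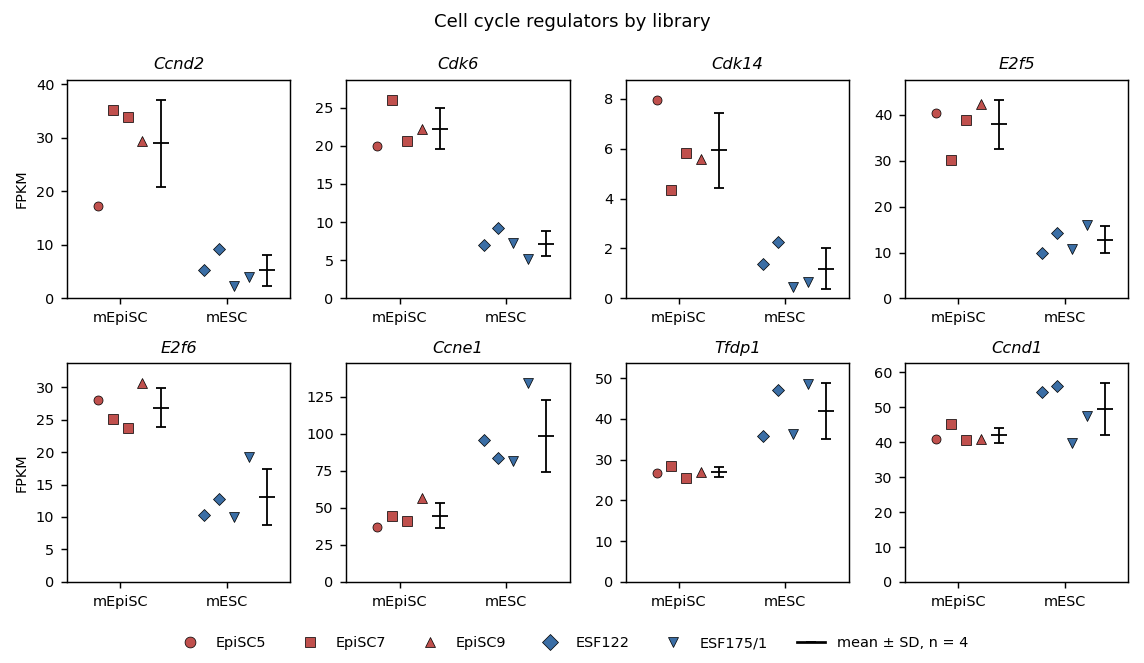
FPKM of 8 genes in each library, with each state's mean and SD (n = 4) beside the points; marker shapes give the line. In the panels of Ccnd2, Cdk6, Cdk14, E2f5 and E2f6 every mEpiSC point lies above every mESC point, in those of Ccne1 and Tfdp1 below, and in that of Ccnd1 the states overlap.

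Cyclin E1, which with Cdk2 drives entry into S phase, was lower in mEpiSC. Ccne1 (chromosome 7, 38883003 to 38892509) had 37.0, 44.6, 41.1 and 56.6 FPKM in mEpiSC 1 to 4, against 95.5, 83.5, 81.6 and 134 FPKM in mESC 1 to 4. The highest mEpiSC library was below the lowest mESC library, with a log2 fold change of −1.11 (SE 0.19, adjusted p = 0.0025). Ccne2, the paralog, had 12.7, 10.9, 8.40 and 9.0 FPKM in mEpiSC 1 to 4, against 7.30, 8.61, 7.99 and 10.2 FPKM in mESC 1 to 4. Those groups overlapped and the log2 fold change of 0.23 (95% interval −0.12 to 0.59) did not pass the test (adjusted p = 0.28). The summed level of both E-type cyclins was 55.1 ± 7.52 FPKM in mEpiSC and 107 ± 25.3 FPKM in mESC (SD, n = 4 each). Ccne1 took 74.5%, 80.4%, 83.0% and 86.3% of that sum in mEpiSC 1 to 4, against 92.9%, 90.7%, 91.1% and 92.9% in mESC 1 to 4. Cdk2, their kinase, averaged 34.9 ± 2.57 FPKM in mEpiSC and 43.2 ± 3.90 FPKM in mESC. The groups of Cdk2 did not overlap, but the log2 fold change of −0.30 (SE 0.11) had an adjusted p of 0.060. Of 17 alternatives 14 left Cdk2 not called. Adjusted p was 0.16 with the line as a random block, 0.20 with the fibroblast covariate and 0.25 with line means as samples. Cdk2 passed after median ratio scaling (0.019), without both replicate 4 libraries (0.034) and without mEpiSC 4 (0.041).

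**Figure D3:**
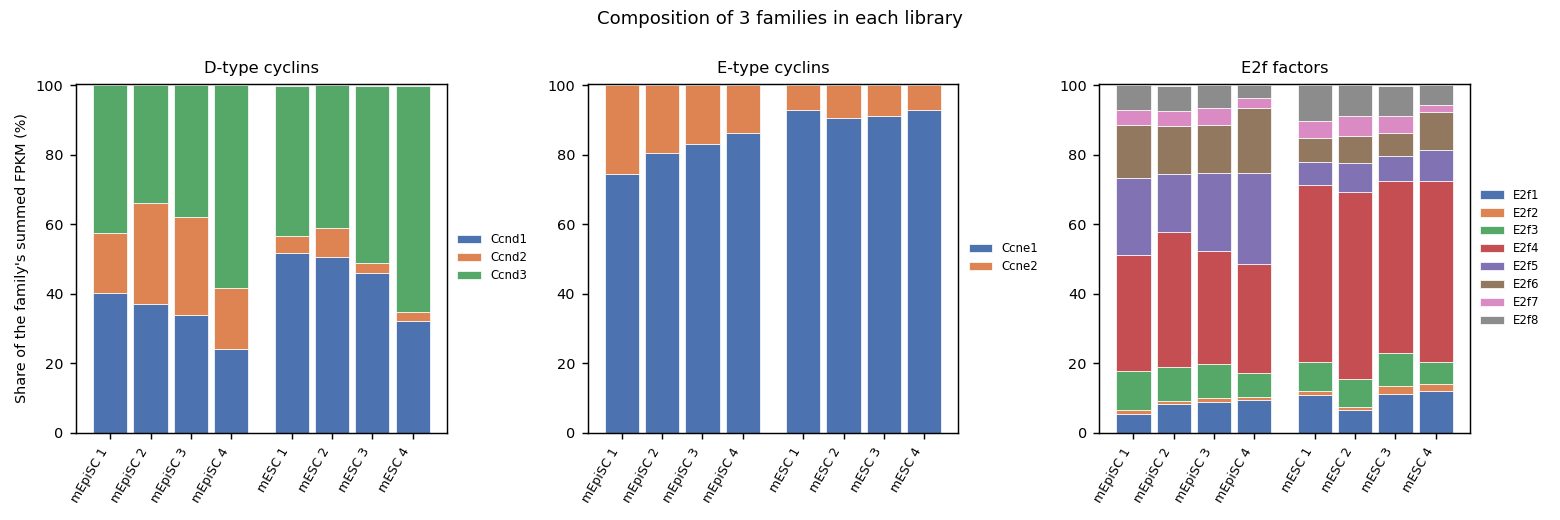
Share of each gene in the summed FPKM of its family, for the D-type cyclins, the E-type cyclins and the E2f factors in each library (percent, bars add to 100). Ccnd2, Ccne2, E2f5 and E2f6 take wider bands in the 4 mEpiSC bars than in the 4 mESC bars, and Ccne1 and E2f4 narrower ones.

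The A- and B-type cyclins and Cdk1, which act in S phase, G2 and mitosis, did not pass the test. Ccna2, cyclin A2, had 75.8, 85.5, 83.9 and 148 FPKM in mEpiSC 1 to 4, against 85.4, 95.4, 86.2 and 125 FPKM in mESC 1 to 4. Ccnb1, cyclin B1, averaged 44.3 ± 15.3 FPKM in mEpiSC and 45.5 ± 9.26 FPKM in mESC, and Ccnb2 75.9 ± 24.4 FPKM in mEpiSC and 69.8 ± 5.13 FPKM in mESC (SD, n = 4 each). Cdk1, the kinase of mitosis, had 42.9, 50.7, 53.3 and 105 FPKM in mEpiSC 1 to 4, against 46.1, 50.4, 52.9 and 82.6 FPKM in mESC 1 to 4. The 4 log2 fold changes lay between −0.07 and 0.07, with adjusted p of 0.81 to 0.93, and their 95% intervals stayed within −1 to 1. The replicate 4 library of each state was the highest for all 4 genes. For Ccnb1, 40.6% of the windows also occur in pseudogenes, so its level is uncertain. Ccna1, known from male meiosis, was at 0.0792 to 1.62 FPKM in mEpiSC and 0.487 to 0.900 FPKM in mESC, and Ccnb3, also a meiotic cyclin, reached 0.0208 FPKM in mEpiSC and 0.0291 FPKM in mESC.

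Among the enzymes that set the phosphorylation of Cdks, Cdc25c differed. Cdc25c, a phosphatase that activates Cdk1, had 13.3, 15.7, 17.1 and 17.5 FPKM in mEpiSC 1 to 4, against 8.23, 11.3, 9.68 and 10.8 FPKM in mESC 1 to 4. The groups did not overlap and the log2 fold change was 0.62 (SE 0.14, adjusted p = 0.0082). Cdc25a averaged 29.1 ± 3.58 FPKM in mEpiSC and 27.8 ± 3.73 FPKM in mESC, with a log2 fold change of 0.06 (95% interval −0.24 to 0.36). Cdc25b averaged 10.3 ± 3.38 FPKM in mEpiSC and 7.17 ± 1.49 FPKM in mESC; its log2 fold change of 0.43 (95% interval −0.09 to 0.96) did not pass the test. Wee1, the kinase that opposes the Cdc25 phosphatases, averaged 20.6 ± 3.71 FPKM in mEpiSC and 23.0 ± 2.66 FPKM in mESC, with a log2 fold change of −0.16 (95% interval −0.51 to 0.19).

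The Cip/Kip inhibitors bind cyclin-Cdk complexes directly. Cdkn1b (p27), on chromosome 6 at 134870419 to 134875543, had 22.5, 28.3, 33.0 and 27.3 FPKM in mEpiSC 1 to 4, against 17.5, 20.0, 16.3 and 16.4 FPKM in mESC 1 to 4. All mEpiSC libraries were above all mESC libraries, with a log2 fold change of 0.62 (SE 0.14, adjusted p = 0.0073). Cdkn1a (p21), an inhibitor induced by p53, had 24.6, 25.9, 17.7 and 91.6 FPKM in mEpiSC 1 to 4, against 66.6, 66.8, 33.8 and 25.0 FPKM in mESC 1 to 4. EpiSC9 was the highest of all libraries, while the other mEpiSC libraries lay close to mESC 4 and below the remaining mESC libraries. Over all libraries the log2 fold change of Cdkn1a was −0.45 (SE 0.51, adjusted p = 0.53). Without both replicate 4 libraries it was −1.21 with an adjusted p of 0.015. Of 17 alternatives 16 left Cdkn1a not called.

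The Ink4 inhibitors bind Cdk4 and Cdk6 and were expressed at low levels. Cdkn2a, a locus that encodes both p16Ink4a and the p53 activator Arf and is given by a single value here, had 4.54, 1.63, 0.875 and 2.80 FPKM in mEpiSC 1 to 4, against 8.26, 5.27, 5.08 and 8.14 FPKM in mESC 1 to 4. The groups did not overlap, with a log2 fold change of −1.24 (SE 0.33, adjusted p = 0.016), but the call was lost with the line as a random block (adjusted p = 0.063). Cdkn2b (p15), its neighbour, had 6.94, 1.89, 0.833 and 2.25 FPKM in mEpiSC 1 to 4, against 3.59, 1.56, 1.58 and 1.55 FPKM in mESC 1 to 4. These groups overlapped (log2 fold change 0.21, 95% interval −0.73 to 1.14, adjusted p = 0.73). The highest value of each state fell in mEpiSC 1 and mESC 1, which also had the highest mean log2 level of the fibroblast markers, 4.47 in mEpiSC 1 and 2.67 to 3.74 in the other mEpiSC libraries, 3.60 in mESC 1 and 0.83 to 1.98 in the other mESC libraries; with that mean as a covariate the log2 fold change of Cdkn2b was −0.51, also not past the test. Among mEpiSC libraries, mEpiSC 1 was also the highest for the primitive endoderm markers Gata4, Gata6 and Sox17, whose part in Cdkn2b was not tested. Cdkn2c (p18) averaged 0.445 ± 0.0781 FPKM in mEpiSC and 0.510 ± 0.177 FPKM in mESC. Cdkn2d (p19) averaged 1.36 ± 1.20 FPKM in mEpiSC and 1.00 ± 0.381 FPKM in mESC at its first listed locus and was listed at 0 at the second. Cdkn2a made up 32.9 ± 3.32% of the summed Ink4 level in mEpiSC and 65.1 ± 3.49% in mESC (SD, n = 4 each).

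Cdkn3, a phosphatase that acts on Cdks, had 7.29, 15.4, 15.5 and 12.8 FPKM in mEpiSC 1 to 4, against 5.78, 9.36, 4.67 and 7.29 FPKM in mESC 1 to 4. EpiSC5 lay within the mESC range, so the groups overlapped. The log2 fold change was 0.81 (SE 0.26, adjusted p = 0.039), and the call was lost in 10 of 17 alternatives, among them the fits without mESC 1, mESC 3, mESC 4, mEpiSC 2, mEpiSC 3 and mEpiSC 4 (adjusted p 0.060 to 0.11).

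**Figure D4:**
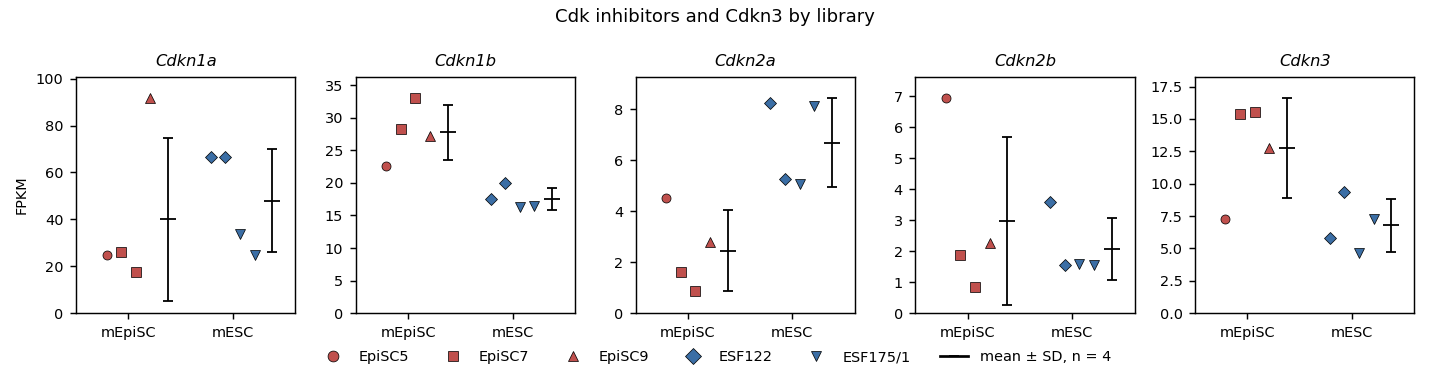
FPKM of 4 Cdk inhibitors and the phosphatase Cdkn3 in each library, with each state's mean and SD (n = 4). Cdkn1a stands at 91.6 FPKM in EpiSC9, the Cdkn1b points of the states do not overlap, and the highest Cdkn2b points are EpiSC5 and 1 of the 2 ESF122 libraries.

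The pocket proteins bind E2f factors and silence their targets; neither Rb1 nor Rbl1 passed the test, and the call of Rbl2 is tied to the filter. Rbl2 (p130), the form of resting cells, had 0.818, 0.638, 0.739 and 0.627 FPKM in mEpiSC 1 to 4, against 1.77, 1.36, 2.13 and 1.29 FPKM in mESC 1 to 4. Its log2 fold change was −0.62 (SE 0.14, adjusted p = 0.0098). Rbl1 (p107), a pocket protein of dividing cells, averaged 9.69 ± 0.691 FPKM in mEpiSC and 7.81 ± 0.776 FPKM in mESC. The Rbl1 groups did not overlap, but adjusted p was 0.088 for a log2 fold change of 0.28. Rb1 had 4.28, 1.79, 2.62 and 5.90 FPKM in mEpiSC 1 to 4, against 5.51, 4.25, 5.18 and 3.70 FPKM in mESC 1 to 4, with overlap and a log2 fold change of −0.36 (95% interval −0.98 to 0.26). The sum of the 3 genes was 14.0 ± 1.31 FPKM in mEpiSC and 14.1 ± 0.800 FPKM in mESC (SD, n = 4 each).

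The activator E2f factors did not pass the test in either direction. E2f1 averaged 13.8 ± 2.70 FPKM in mEpiSC and 16.4 ± 4.23 FPKM in mESC, with a log2 fold change of −0.22 (95% interval −0.70 to 0.26). E2f2 averaged 1.93 ± 0.358 FPKM in mEpiSC and 2.40 ± 1.19 FPKM in mESC. E2f3 had 20.0, 17.9, 16.8 and 10.9 FPKM in mEpiSC 1 to 4, against 12.7, 13.9, 14.1 and 11.3 FPKM in mESC 1 to 4. Only EpiSC9 kept the E2f3 groups from being apart. The log2 fold change was 0.29 (adjusted p = 0.24), and 0.46 (adjusted p = 0.018) without mEpiSC 4. Of 17 alternatives 15 left E2f3 not called, with adjusted p up to 0.85.

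Among the 5 repressor E2f factors E2f5 and E2f6 were higher and E2f4 lower in mEpiSC, beside 37.3% of all genes tested called in either direction. E2f5 (chromosome 3, 14578671 to 14606309), which works with p130 and p107, had 40.4, 30.2, 38.9 and 42.4 FPKM in mEpiSC 1 to 4, against 9.99, 14.4, 10.7 and 16.1 FPKM in mESC 1 to 4. The lowest mEpiSC library was well above the highest mESC library, with a log2 fold change of 1.51 (SE 0.18, adjusted p = 4.4e-04). E2f6 (chromosome 12, 16817771 to 16833558), which represses without pocket proteins as part of Polycomb complexes, had 27.9, 25.1, 23.7 and 30.6 FPKM in mEpiSC 1 to 4, against 10.3, 12.8, 9.93 and 19.2 FPKM in mESC 1 to 4. Its groups did not overlap either (log2 fold change 1.03, SE 0.20, adjusted p = 0.0043). E2f4, the most abundant E2f in both states, had 60.8, 70.4, 56.0 and 50.6 FPKM in mEpiSC 1 to 4, against 75.6, 89.8, 73.2 and 92.1 FPKM in mESC 1 to 4. These groups were apart by a small gap, with a log2 fold change of −0.47 (SE 0.14, adjusted p = 0.026). The E2f4 call was lost in 7 of 17 alternatives, among them the fits without mESC 2, mESC 4 or mEpiSC 3 (adjusted p 0.057 to 0.073). E2f7, an atypical factor that represses E2f targets late in the cycle, averaged 7.18 ± 1.71 FPKM in mEpiSC and 7.09 ± 2.44 FPKM in mESC. E2f8, the other atypical factor, averaged 10.8 ± 3.46 FPKM in mEpiSC and 13.2 ± 2.30 FPKM in mESC, and neither passed the test.

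All 8 E2f genes together summed to 174 ± 9.48 FPKM in mEpiSC and 161 ± 14.4 FPKM in mESC (SD, n = 4 each). E2f4 took 33.4%, 38.8%, 32.5% and 31.3% of that sum in mEpiSC 1 to 4, against 50.7%, 53.6%, 49.4% and 51.9% in mESC 1 to 4. E2f5 averaged 21.9 ± 3.94% in mEpiSC and 7.89 ± 1.12% in mESC, and E2f6 15.5 ± 2.40% in mEpiSC and 8.01 ± 1.91% in mESC. The shares of E2f4, E2f5 and E2f6 did not overlap between the states. A sum of FPKM is a level of RNA and says nothing of protein.

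Tfdp1 (DP1), the partner that E2f1 to E2f6 need to bind DNA, was lower in mEpiSC. It lies on chromosome 8 at 13339674 to 13377702 and had 26.8, 28.5, 25.6 and 27.1 FPKM in mEpiSC 1 to 4, against 35.8, 47.1, 36.4 and 48.5 FPKM in mESC 1 to 4. The mEpiSC libraries lay close together below all mESC libraries, with a log2 fold change of −0.60 (SE 0.13, adjusted p = 0.0070). With the fibroblast covariate the log2 fold change was −0.45 and no longer passed the test (adjusted p = 0.064), and 24.5% of the windows of Tfdp1 also occur in other genes, among them Gm7390. Tfdp2 (DP2) averaged 9.94 ± 1.27 FPKM in mEpiSC and 10.0 ± 0.592 FPKM in mESC, with a log2 fold change of −0.02 (95% interval −0.29 to 0.26).

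Many genes of the cell cycle are themselves transcribed through E2F sites, CHR elements and CCAAT boxes. The promoters of 3 members are shown: Ccne1 and Tfdp1, both lower in mEpiSC, and Cdk1, which did not pass the test. No member higher in mEpiSC is shown. Each sequence is from RefSeq on GRCm38.p6, from 250 bases before to 50 after the start of transcription, and capitals mark exact matches on either strand to TTTGGCGC, TTTCGCGC, TTTCCCGC or TTTGCCGC (E2F-type letters), TTTGAA (CHR) and CCAAT.
Ccne1, lower in mEpiSC, chr7:38107441-38107740, minus strand: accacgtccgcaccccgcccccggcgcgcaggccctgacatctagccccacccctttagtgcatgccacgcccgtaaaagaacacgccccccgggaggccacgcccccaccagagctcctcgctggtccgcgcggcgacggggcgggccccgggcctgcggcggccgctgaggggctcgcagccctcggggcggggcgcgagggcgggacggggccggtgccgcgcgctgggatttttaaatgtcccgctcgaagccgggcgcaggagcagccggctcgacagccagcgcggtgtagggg
Tfdp1, lower in mEpiSC, the first of 2 listed promoters, chr8:13338501-13338800, plus strand: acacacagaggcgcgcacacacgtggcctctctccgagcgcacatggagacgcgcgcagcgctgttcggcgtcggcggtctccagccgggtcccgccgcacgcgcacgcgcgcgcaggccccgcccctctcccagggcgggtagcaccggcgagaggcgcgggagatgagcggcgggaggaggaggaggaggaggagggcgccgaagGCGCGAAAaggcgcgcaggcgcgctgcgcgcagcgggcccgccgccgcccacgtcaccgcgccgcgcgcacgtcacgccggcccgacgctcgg
Cdk1, alike in both states, chr10:69352863-69353162, minus strand: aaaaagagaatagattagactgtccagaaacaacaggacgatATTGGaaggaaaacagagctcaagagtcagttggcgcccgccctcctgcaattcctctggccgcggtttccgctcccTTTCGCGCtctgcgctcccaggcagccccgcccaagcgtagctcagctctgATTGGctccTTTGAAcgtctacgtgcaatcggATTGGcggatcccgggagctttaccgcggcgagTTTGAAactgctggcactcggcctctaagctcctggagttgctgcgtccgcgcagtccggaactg
In Tfdp1 the letters TTTCGCGC start at base 208 of the window on the opposite strand. In Cdk1 they start at base 120, TTTGAA at bases 180 and 236, and CCAAT on the opposite strand at bases 43, 171 and 203. The Ccne1 window holds none of these letters, which says only that exact matches are not in this stretch.

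RefSeq listed a promoter for 42 of the 54 genes. E2F-type letters were in 9 of the 42 (21.4%), against 2.26% of all 32851 promoters of the table. By result, they were in 0 of 6 genes that were higher in mEpiSC, in 2 of 4 that were lower (Cdkn2a and Tfdp1), and in 7 of 27 that did not pass the test (Cdc25a, Cdk1, Cdk2, E2f2, E2f3, E2f7 and Rbl1). TTTGAA was in 10 of 42 (23.8%), against 17.9% of all promoters, and CCAAT in 22 of 42 (52.4%), against 37.4%. The shares are in unlike units. A member counted if any of its listed promoters matched, and 11 of the 42 have 2 or more, while the background counts each promoter singly. This raises the shares of the 42 beside the background. The matches are a description, with no test.

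Among the Cdks that act outside the core cycle, Cdk14 stood apart. Cdk14 (chromosome 5, 4803385 to 5380251), a kinase at the plasma membrane that works with cyclin Y in Wnt signalling, had 7.96, 4.36, 5.82 and 5.58 FPKM in mEpiSC 1 to 4, against 1.38, 2.27, 0.455 and 0.669 FPKM in mESC 1 to 4. The groups did not overlap, with a log2 fold change of 1.71 (SE 0.27, adjusted p = 0.0018; 0.020 with the fibroblast covariate). Ccny, the gene of cyclin Y, also passed the test, at 26.8 ± 1.04 FPKM in mEpiSC and 17.8 ± 4.38 FPKM in mESC (log2 fold change 0.59, adjusted p = 0.019; highest adjusted p over the alternatives 0.10); its name was added after its value was seen. Cdk5, best known from neurons, had 10.5, 8.41, 8.60 and 9.61 FPKM in mEpiSC 1 to 4, against 6.66, 8.33, 6.60 and 5.75 FPKM in mESC 1 to 4. The Cdk5 groups were apart by a very small gap, and the log2 fold change of 0.40 (adjusted p = 0.048) held in only 3 of 17 alternatives. Cdk16, Cdk17, Cdk18, Cdk10 and Cdk20 did not pass the test, with log2 fold changes of −0.31 (Cdk18) to 0.42 (Cdk16). Cdk15 reached 0.0639 FPKM in mEpiSC and 0.105 FPKM in mESC.

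The Cdks of transcription phosphorylate RNA polymerase II or sit in its Mediator complex. Cdk8, a Mediator kinase, averaged 17.8 ± 0.641 FPKM in mEpiSC and 13.8 ± 1.57 FPKM in mESC, without overlap (log2 fold change 0.35, SE 0.11, adjusted p = 0.040), and the call was lost in 11 of 17 alternatives. Cdk19, its paralog, averaged 3.46 ± 0.624 FPKM in mEpiSC and 4.35 ± 0.810 FPKM in mESC and did not pass the test. Cdk7, which also activates other Cdks, averaged 10.8 ± 0.556 FPKM in mEpiSC and 11.0 ± 0.915 FPKM in mESC, with a log2 fold change of −0.02 (95% interval −0.26 to 0.23). Cdk9, the kinase of transcript elongation, averaged 15.4 ± 0.963 FPKM in mEpiSC and 17.1 ± 3.86 FPKM in mESC. Cdk13, a kinase of the polymerase tail, averaged 11.3 ± 4.18 FPKM in mEpiSC and 9.93 ± 3.02 FPKM in mESC. Cdk12, its relative, averaged 13.9 ± 4.64 FPKM in mEpiSC and 18.1 ± 4.32 FPKM in mESC. Cdk12 did not pass the test (log2 fold change −0.39, adjusted p = 0.31). Of 17 alternatives 15 left Cdk12 not called, with adjusted p up to 0.65. It passed with the replicate number as a block (adjusted p = 0.036), a pairing that no label gives, and without both replicate 4 libraries (0.044).

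Skp2, the ligase receptor that marks Cdkn1b for destruction, had 27.8, 27.3, 25.6 and 29.5 FPKM in mEpiSC 1 to 4, against 19.7, 25.0, 20.5 and 23.9 FPKM in mESC 1 to 4. The groups did not overlap, and the log2 fold change of 0.30 (SE 0.12) had an adjusted p of 0.068. Of 17 alternatives 16 left Skp2 not called, with adjusted p up to 0.20. Only the fit with the replicate number as a block, a pairing that no label gives, called Skp2 (adjusted p = 0.045). Fbxw7, the receptor that marks cyclin E, averaged 9.17 ± 2.27 FPKM in mEpiSC and 11.1 ± 2.32 FPKM in mESC, with a log2 fold change of −0.26 (95% interval −0.75 to 0.23).

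The lines of each state were compared in a fit with 1 mean per line. Between the mESC lines, ESF175/1 against ESF122, limma called 0 of the 49 genes at an adjusted p under 0.05, with 4 at an unadjusted p under 0.05; over all genes tested 0.762% were called and 14.9% had an unadjusted p under 0.05. The 4 were E2f2 (3.42 FPKM in ESF175/1 and 1.37 FPKM in ESF122, log2 difference 0.90, adjusted p = 0.086), Cdkn1a (29.4 FPKM in ESF175/1 and 66.7 FPKM in ESF122, −1.17, adjusted p = 0.091), Cdk14 (0.562 FPKM in ESF175/1 and 1.82 FPKM in ESF122, −0.84, adjusted p = 0.19) and Ccnd2 (3.24 FPKM in ESF175/1 and 7.26 FPKM in ESF122, −0.95, adjusted p = 0.21). For Ccnd2 and Cdk14 the highest mESC library was mESC 2, of ESF122, which also had the most Fgf5, Cer1, Foxa2, Cdh2 and Krt18 among mESC libraries. Whether these go together was not tested. Among the mEpiSC lines an F test called 1 gene, Cdkn1a, beside 2.6% of all genes tested. Of the 49, 15 had an unadjusted p under 0.05, against 24.7% of all genes. Cdkn1a was at 91.6 FPKM in EpiSC9, 24.6 FPKM in EpiSC5 and a mean of 21.8 FPKM in EpiSC7 (adjusted p = 0.033). EpiSC5 and EpiSC9 have 1 library each, assumed to vary like the other lines, and these line calls shifted with single libraries. Leaving out mEpiSC 1 or mEpiSC 4 takes out EpiSC5 or EpiSC9 altogether, so those fits compare only the remaining mEpiSC lines. EpiSC9 is also the replicate 4 library, and its line and replicate number cannot be told apart. Without mESC 3 or mESC 4 the F test called 14 of the 49 genes, without mEpiSC 2, mEpiSC 3, mEpiSC 4, mESC 1 or mESC 2 it called 0, and between the mESC lines 8 were called without mESC 3.

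The replicate 4 libraries, EpiSC9 and the second ESF175/1 library, differed from replicates 1 to 3 of their state in a shared set of genes. Ccnd3, Cdk1 and Ccnb1 were above the mean of the other 3 libraries by over 0.5 on the log2(FPKM + 1) scale in both states: by 1.17 in mEpiSC 4 and 1.08 in mESC 4 for Ccnd3, by 1.08 in mEpiSC 4 and 0.72 in mESC 4 for Cdk1, and by 0.85 in mEpiSC 4 and 0.51 in mESC 4 for Ccnb1. Cdk13 (−1.23 in mEpiSC 4 and −0.95 in mESC 4), Cdk12 (−1.08 in mEpiSC 4 and −0.72 in mESC 4), Fbxw7 (−0.73 in mEpiSC 4 and −0.60 in mESC 4) and E2f7 (−0.68 in mEpiSC 4 and −0.93 in mESC 4) were below it in both. Over all genes tested 6.05% were above and 6.71% below in both states by that bound, against 3 and 4 of the 49 here, so the share is near the background. Cdkn1a went in opposite directions, 1.98 above in mEpiSC 4 and −1.06 in mESC 4. Why the libraries numbered 4 depart together was not tested.

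**Figure D5:**
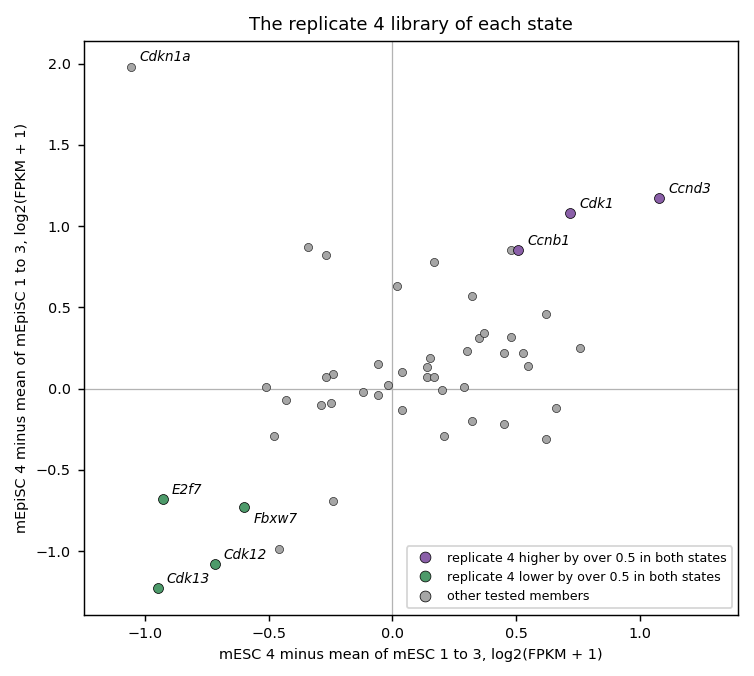
Difference of the replicate 4 library from the mean of replicates 1 to 3 of its state on the log2(FPKM + 1) scale, mEpiSC on the vertical and mESC on the horizontal axis, for the 49 tested genes. Purple points (Ccnd3, Cdk1, Ccnb1) are over 0.5 above and green points (Cdk13, Cdk12, Fbxw7, E2f7) over 0.5 below in both states, and Cdkn1a is above in mEpiSC 4 and below in mESC 4.

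Lists of genes around the cycle machinery were read from the same fit, to be set against the 23.1% of all genes tested that were higher and the 14.2% that were lower in mEpiSC. Of 22 replication and other E2f target genes 0 were higher and 6 lower in mEpiSC, with a median log2 fold change of −0.23 against 0.083 over all genes; over the alternatives 1 to 10 were lower. Pola1, the catalytic subunit of DNA polymerase alpha, was at 15.0 ± 1.65 FPKM in mEpiSC and 28.2 ± 2.70 FPKM in mESC (log2 fold change −0.88, adjusted p = 9.2e-04). Cdt1, a loading factor of the replicative helicase, had a log2 fold change of −0.76, Mcm5, a subunit of that helicase, of −0.50, and Rpa2, which coats single-stranded DNA, of −0.69. Pola1 passed the test under every alternative, while Cdt1, Mcm5 and Rpa2 did not (highest adjusted p 0.12, 0.36 and 0.10). Of 18 genes of G2 and mitosis limma called 0, with 2 at an unadjusted p under 0.05 and a median of −0.03; other fits called at most 2 in either direction.

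Of 11 partners of E2f factors in the DREAM and Polycomb complexes 0 were higher and 5 lower in mEpiSC, with a median of −0.45; over the alternatives 3 to 6 were lower. Mybl2 (B-Myb), which turns the DREAM core into an activator of mitotic genes, was at 11.8 ± 0.895 FPKM in mEpiSC and 57.0 ± 8.64 FPKM in mESC (log2 fold change −2.17, adjusted p = 1.1e-05). L3mbtl2, Pcgf6 and Mga, which share a Polycomb complex with E2f6, had log2 fold changes of −0.96, −0.84 and −0.58, opposite in sign to E2f6. Of 16 genes of the p53 pathway 1 was higher, Btg2 (1.42), and 5 lower, with a median of −0.65; over the alternatives 1 to 10 were lower, the 10 without both replicate 4 libraries. EpiSC9, the library with the high Cdkn1a, was the highest mEpiSC library for 12 of the 16 genes, against 42.8% of all genes tested. It is the only library of its line and also the replicate 4 library, so line and replicate number cannot be told apart. Mdm2, the ligase that degrades p53 and a gene picked here after its values were seen, had 26.0, 25.1, 23.3 and 53.5 FPKM in mEpiSC 1 to 4, against 50.1, 34.3, 52.0 and 39.0 FPKM in mESC 1 to 4, and did not pass the test. Sesn2 (−1.41) was lower under every alternative. Trp53inp1 (−1.16, adjusted p = 0.030) had 19.1, 24.7, 31.0 and 66.2 FPKM in mEpiSC 1 to 4, against 85.5, 66.1, 90.1 and 51.2 FPKM in mESC 1 to 4. EpiSC9 lay inside the mESC range, and the call was lost in an alternative (highest adjusted p 0.19). Pmaip1 (Noxa) was at 27.5, 0.417, 0.206 and 0.328 FPKM in mEpiSC 1 to 4, against 27.1, 39.7, 16.7 and 12.8 FPKM in mESC 1 to 4 (−3.02, adjusted p = 0.034). EpiSC5 thus lay within the mESC range for Pmaip1, whose call was also lost in an alternative (highest adjusted p 0.26).

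Of 12 inputs from mitogens and Myc to the G1 cyclins 3 were higher and 3 lower, with a median of −0.13; over the alternatives 2 to 5 were higher and 1 to 4 lower. Fos, an immediate early factor of AP-1, was at 97.5 ± 20.9 FPKM in mEpiSC and 14.8 ± 6.70 FPKM in mESC (log2 fold change 2.74). Jun, its partner, was at 47.3 ± 13.0 FPKM in mEpiSC and 9.01 ± 6.72 FPKM in mESC (log2 fold change 2.45). Targets of FGF and ERK signalling went in both directions: Etv4 (−1.70), Spry4 (−1.19) and Etv5 (−1.05) were lower, and Dusp6 (1.15, adjusted p = 0.019) was higher; Etv5 and Dusp6 were added after their values were seen. The calls of Etv4, Spry4 and Dusp6 were lost in an alternative, with a highest adjusted p of 0.062 for Etv4, 0.22 for Spry4 and 0.074 for Dusp6. Of 19 tested cyclins and Cdk partners outside the 54 genes 4 were higher and 1 lower, with a median of 0.13; over the alternatives 0 to 5 were higher and 0 to 4 lower. Cdkn1c (p57), the remaining Cip/Kip inhibitor, had 11.9, 29.9, 40.4 and 27.7 FPKM in mEpiSC 1 to 4, against 7.38, 8.44, 7.99 and 11.5 FPKM in mESC 1 to 4. The Cdkn1c groups did not overlap, with EpiSC5 nearest to mESC (log2 fold change 1.43, SE 0.32, adjusted p = 0.0086; highest adjusted p over the alternatives 0.12). Ccni and Ccnj had log2 fold changes of 0.62 and 0.60, and Cdk5rap1 of −0.69; each of these calls was lost in an alternative (highest adjusted p 0.17, 0.14 and 0.086). Of 16 subunits of the SCF and APC/C ubiquitin ligases 1 was higher, Rbx1 (0.94), and 1 lower, Anapc5 (−0.38), with a median of −0.01; both calls were lost in an alternative (highest adjusted p 0.074 for Rbx1 and 0.22 for Anapc5), and over the alternatives 0 to 4 were higher and 0 to 2 lower.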

How the data were processed

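Polyadenylated RNA was prepared with the TruSeq kit, per the labels' protocols. The authors deposited FPKM per gene and library with interval bounds and a status, which per the submitters' processing notes come from Cufflinks 2.0.2 after alignment with TopHat2 2.0.6 to mm9. Annotation, options and strandedness: not given in the sources used here; reads of overlapping genes therefore cannot be told apart. All 54 genes had status OK in all 8 libraries. The values are no counts, and no count test was run. The interval half-widths imply fragment numbers; values of low genes (under 100 fragments) came out whole within 0.05 for 80.3% to 81.2% of genes, and library depth was summed from them.

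States and lines were taken from the labels. In R 4.3.3, limma 3.58.1 with its trend and robust options (statmod 1.5.0) was fitted to log2(FPKM + 1) of 11556 genes that had 1 locus per symbol and reached 1 FPKM in 4 or more libraries, with Benjamini-Hochberg adjustment over all of them, and was tested on simulated data. A fold change on this scale understates the change of low genes. Lines were compared with 1 mean per line in a fit of all 8 libraries. Tables and figures used Python 3.11.15, pandas 2.3.3, numpy 2.4.6 and matplotlib 3.10.9. Start coordinates are the listed mm9 loci plus 1. Shared sequence was counted in 50-base windows of GENCODE vM21 transcripts on both strands, a reference of another build used for names and sequence only.

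Both states use replicate numbers 1 to 4, for different lines. Deviations from the group means of same-numbered libraries correlated across genes at 0.22, 0.15, 0.18 and 0.51 for replicates 1 to 4. All were over 0.1, the bound by which they were read as pairs, a reading that rests on these data alone. Libraries of different number also passed that bound. These were mESC 1 with mEpiSC 2 (0.12), mESC 2 with mEpiSC 1 (0.11) and mEpiSC 3 (0.19), and mESC 3 with mEpiSC 2 (0.21). The bound therefore cannot show pairing for replicates 1 to 3, and replicate 4 alone stands clearly apart. The alternatives were a pseudocount of 0.1, no filter, median ratio scaling, the replicate block, a random block for the line (its correlation was 0.47), the fibroblast covariate, 1 mean per line, and fits without both replicate 4 libraries or without each library; line means as samples was added after seeing the data. Values per library are given for genes of the set past the test with at least a 1.5-fold change and for D-type and E-type cyclins and the inhibitors, among others; of each surrounding list up to 4 genes past the test with the largest change are named. The members and lists were chosen with earlier results of these data known.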

Additional observations from a re-analysis of the deposited data

Results flagged for a closer look

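In 14 of 98 groups of 4 libraries, 1 library stood apart from the others by a gap past Dixon's 95% critical value for 4 samples; chance gives about 1 in 20. Of the 14, 10 were replicate 4 libraries, 7 mEpiSC 4 and 3 mESC 4. Groups of the same state share the same 4 libraries, so they are not independent. The same count was not made over all genes tested, so the 14 cannot be read as particular to these genes. Over all genes tested, mEpiSC 4 was the highest mEpiSC library for 42.8%.

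In mEpiSC 4 the high values were Cdkn1a at 91.6 FPKM (17.7 to 25.9 FPKM in the other mEpiSC libraries), Ccna2 at 147.9 FPKM (75.8 to 85.5 FPKM), Cdk1 at 104.5 FPKM (42.9 to 53.3 FPKM) and Ccnd3 at 98.8 FPKM (41.5 to 45.8 FPKM). The low values in mEpiSC 4 were Cdk13 at 5.13 FPKM (12.6 to 14.1 FPKM), E2f7 at 4.64 FPKM (7.82 to 8.40 FPKM) and Fbxw7 at 5.79 FPKM (10.0 to 10.6 FPKM). In mESC 4, Ccnd3 was high at 96.6 FPKM (44.2 to 45.6 FPKM in the other mESC libraries), and Cdk13 at 5.43 FPKM (11.0 to 11.9 FPKM) and Cdk19 at 3.13 FPKM (4.71 to 4.82 FPKM) were low. Ccnd3 and Cdk13 thus stood apart in the same direction in both states.

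Elsewhere, Ccnd1 stood apart in mEpiSC 2 at 45.3 FPKM (40.8 to 41.0 FPKM) and E2f1 in mEpiSC 1 at 9.78 FPKM (14.8 to 15.4 FPKM). In mESC 1, Cdkn2b was high at 3.59 FPKM (1.55 to 1.58 FPKM) and Tfdp2 low at 9.13 FPKM (10.3 FPKM in each of the others, to 3 digits).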

How the results depend on the processing

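Of 828 values of single genes under the alternatives, 705 kept direction and call, 48 lost and 17 gained a call, and 58 (18 genes) changed sign, none of them of a called gene and none past the test. Over all genes the 2665 higher and 1640 lower calls became 832 and 557 with line means as samples, 3 mEpiSC lines against 2 mESC lines, which tests fewer samples; the lower calls became 1046 with the line as a random block and 1048 with the fibroblast covariate. Leaving out 1 library gave 1843 to 2543 higher and 976 to 1945 lower calls. Of the 49 genes, line means as samples gave 5 higher and 2 lower, the random block and the fibroblast covariate 3 lower each, and leaving out 1 library 7 to 9 higher and 3 to 7 lower. The replicate block gave 11 higher and 6 lower: Cdk4, Cdk12 and Skp2 gained a call and Cdk5 lost it (adjusted p = 0.063), and it changed no other call. Rbl2 fell under the filter in 5 of 17 alternatives. Line means as samples ended the calls of Cdc25c (adjusted p = 0.090), Cdkn1b (0.10), Rbl2 (0.077) and Cdkn2a (0.13), and of E2f4, Cdk5, Cdk8 and Cdkn3. Between mESC lines, leaving out 1 library gave 0 to 8 genes; among mEpiSC lines it gave 0 to 14, and no filter and median ratio scaling gave 0 each. The mean share of Ccnd2 was 20.9% to 24.8% in mEpiSC and 3.52% to 5.37% in mESC without each library in turn.

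The log2 fold changes that changed sign were all of genes not called. The random block gave Ccna2 0.00043 and Ccnd3 0.02; 1 mean per line Ccna2 0.02, Ccnd3 0.07 and E2f7 −0.02; line means as samples Ccna2 0.01, Ccnd3 0.01 and E2f7 −0.05. The fibroblast covariate gave Ccna2 0.36, Ccnb1 0.36, Ccnd3 0.57, Cdk10 0.21, Cdk13 −0.43, Cdk20 0.12, Cdk7 0.02, Cdk9 0.12, Cdkn2b −0.51, E2f1 0.0042, E2f2 0.01, E2f7 −0.33, Tfdp2 0.11 and Wee1 0.05. Median ratio scaling gave Ccnb2 −0.04, Cdc25a −0.04, Cdk1 −0.05, Cdk17 −0.0035 and E2f7 −0.05; leaving out both replicate 4 libraries gave Ccnb2 −0.08, Cdk1 −0.03, Cdk10 0.09, E2f2 0.08 and E2f7 −0.02. Without each library in turn the ranges were Ccna2 −0.24 to 0.09, Ccnb1 −0.29 to 0.05, Ccnb2 −0.13 to 0.22, Ccnd3 −0.32 to 0.24, Cdc25a −0.01 to 0.15, Cdk1 −0.21 to 0.24, Cdk10 −0.23 to 0.05, Cdk13 −0.10 to 0.45, Cdk7 −0.06 to 0.03, Cdk9 −0.20 to 0.02, Cdkn2b −0.20 to 0.51, E2f2 −0.34 to 0.0044, E2f7 −0.19 to 0.22 and Tfdp2 −0.08 to 0.04. The cause was not tested. Depth limits Cdkn2a most among tested genes, at 15 implied fragments in its lowest library.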
